A study of Mus musculus with 6 samples.

Results

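Targets of the transcription factor p53 and the Gadd45 genes were examined in the cortex of mice without HtrA2, a protease that resides between the mitochondrial membranes. The 10 listed genes were Trp53, Cdkn1a, Mdm2, Ccng1, Trp53inp1, Fas, Sesn1, Gadd45a, Gadd45b and Gadd45g. A probe set was taken where the platform annotation named 1 of these genes and no other. This gave 20 probe sets for 9 genes, out of 45037 probe sets tested and 18193 genes named. The annotation used here names no probe set for Trp53 alone, so the transcript of p53 itself was not analysed here. Wild type cortex (3 arrays) was compared with HtrA2 knockout cortex (3 arrays), all from littermates at postnatal day 29, with 1 Affymetrix expression array per sample. Mice without HtrA2 are known for loss of striatal neurons, and the submitters took cortex as a region without evidence of it. Strain, sex, litter and the way the Htra2 allele was disrupted are not given in the sources used here.

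p53 is a transcription factor that accumulates when DNA is damaged or a cell is stressed. It is kept low by Mdm2, a ubiquitin ligase that is itself a p53 target and so closes a feedback loop. Cdkn1a encodes p21, which halts the cell cycle. Ccng1 encodes cyclin G1, and Fas a death receptor of the cell surface. Trp53inp1 encodes a nuclear protein that takes part in cell death and autophagy, and Sesn1 a sestrin, which restrains mTORC1. The 3 Gadd45 genes encode small stress proteins that bind PCNA, p21 and the kinase MTK1. Gadd45a is a classical p53 target, whereas Gadd45b and Gadd45g answer mainly to other signals, among them neuronal activity.

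p53 binds a consensus sequence in DNA, and the promoter stretches of the measured genes that hold its decamer are shown, with that of Gadd45g, which holds another stress element. Promoters of 300 bases (250 before and 50 after a transcript start, RefSeq, GRCm38.p6) were held for 9 of the 10 listed genes, all but Trp53inp1. They were searched on both strands for the 10-base p53 consensus decamer, for the C/EBP-ATF element TGATGCAA and for the cAMP response element TGACGTCA. A full p53 site holds a pair of such decamers. Only exact matches were marked, so a near match beside a decamer is not in capitals. At least 1 decamer lay in the promoters of 6 of these 9 genes (6 of 11 promoters), which include Trp53 (not shown, since its transcript was not measured), and none in Fas, Gadd45b or Gadd45g. Of all 32851 promoters, 8.36% held one. The genes had been listed as p53 targets, so this is a description of the list. Lines below run 5′ to 3′ on the strand of the gene, and capitals mark the match with 20 bases on either side.
Cdkn1a, chr17:29090886-29090957, plus strand: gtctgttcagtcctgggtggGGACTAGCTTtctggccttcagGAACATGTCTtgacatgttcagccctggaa
Mdm2, chr10:117710915-117710964, minus strand: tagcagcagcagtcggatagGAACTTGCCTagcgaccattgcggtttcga
Ccng1, chr11:40755442-40755491, minus strand: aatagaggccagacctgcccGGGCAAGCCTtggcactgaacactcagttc
Sesn1, chr10:41887246-41887295, plus strand: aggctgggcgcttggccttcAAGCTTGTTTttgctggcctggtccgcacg
Gadd45a, chr6:67037418-67037467, minus strand: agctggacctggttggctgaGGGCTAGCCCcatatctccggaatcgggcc
Gadd45g, chr13:51846554-51846601, plus strand: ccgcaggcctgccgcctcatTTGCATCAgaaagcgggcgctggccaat

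Cdkn1a had 2 decamers, starting 73 and 51 bases before a transcript start, with 12 bases between them. A pair of decamers 0 to 13 bases apart was present in 0.0731% of all promoters. That start lies 2790 bases before the other Cdkn1a start of the table, whose promoter held no match. Directly after the second decamer the printed Cdkn1a line reads tgacatgttc, which departs from the consensus decamer at its first base only. Such near matches were not counted, so the pair given here is one of exact matches. A lone decamer, with no exact partner, began 186 bases before the start in Mdm2, 185 in Ccng1, 173 in Sesn1 and 40 in Gadd45a. Gadd45g had no decamer but a C/EBP-ATF element (TTGCATCA, the reverse complement of TGATGCAA) 101 bases before its start, a sequence found in 0.895% of promoters. No listed promoter held TGACGTCA, which 1.79% of promoters did. A match is a run of letters and does not show that a factor binds there.

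None of the 20 probe sets passed the test between knockout and wild type. Each was tested in limma, with p adjusted by Benjamini-Hochberg across the 45037 probe sets. At an adjusted p under 0.05, 1.77% of these passed, 0.884% higher and 0.884% lower. By gene, 0 of 9 passed at any probe set, against 3.30% of all genes named. At an unadjusted p under 0.05 there were 2 of 20, against 16.9% of all probe sets. The groups did not overlap at 2 of 20, 1 higher (Trp53inp1) and 1 lower (Gadd45a), against 23.2% of all probe sets (11.6% each way). Both shares are below those of all probe sets. The knockout mean was above the wild type mean at 10 of the 20, against 51.3% of all probe sets, and below it at 10. Trp53inp1, Fas and Gadd45a had 1 probe set each past the test in a fit that weights the arrays by quality (adjusted p = 0.045, 0.0496 and 0.0456), in which 4205 probe sets passed. The median difference was 0.014 on the log2 scale, against 0.0048 over all probe sets. Over the brightest probe set of each gene, the median was 0.17 for the 9 genes and 0.018 for all genes. Levels are RMA values, in log2 units. Differences are knockout minus wild type ± SE with n = 3 in each group, and intervals are unadjusted 95% intervals from the same fit.

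**Figure D1:**
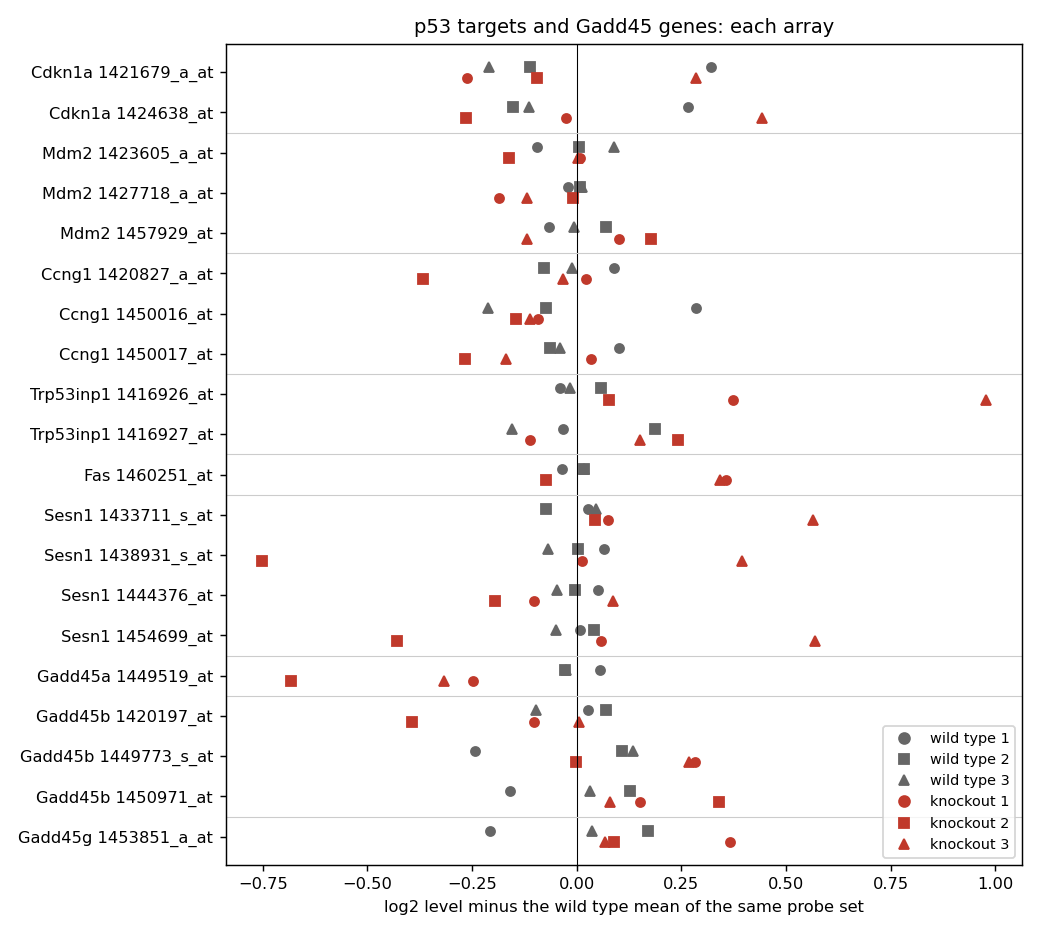
Each point is 1 array of cortex, plotted as its log2 level minus the wild type mean of the same probe set, with grey for wild type and red for knockout and a marker shape for each replicate number. Knockout points spread more than wild type points at 15 of the 20 probe sets. Gadd45a and the first-listed Trp53inp1 probe set are the 2 whose groups do not overlap.

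The arrays as a whole differed in ways that touch these genes. Htra2 checked the labels at 1 of its 2 probe sets, which fell by 2.27 ± 0.17 (adjusted p = 0.00227), while the other rose by 1.11 ± 0.08 (adjusted p = 0.00169), and where each lies relative to the disrupted part is not given here. Knockout replicate 2 stood farthest from its group. Its root mean square distance from its group mates was 0.267, against 0.137 to 0.200 for the other 5 arrays. Y-linked transcripts were at a mean of 4.03 in wild type replicate 1 and 4.02 in knockout replicate 3, and between 7.73 and 7.96 in the other 4 arrays, so both groups hold arrays of either kind.

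Mdm2, the ubiquitin ligase that holds p53 down, overlapped between the groups at its brightest probe set (1423605_a_at). Wild type arrays read 9.70, 9.80 and 9.88 and knockout arrays 9.80, 9.63 and 9.80. The difference was -0.05 ± 0.09 (interval -0.25 to 0.15, adjusted p = 0.834). At 1427718_a_at wild type arrays lay between 8.67 and 8.71, and knockout arrays read 8.51, 8.68 and 8.57. Knockout replicate 2 fell within the wild type range there and the other 2 knockout arrays below it, for a difference of -0.10 ± 0.08 (adjusted p = 0.555). The remaining probe set, 1457929_at, was dim, with 14.4% of all probe sets dimmer, and differed by 0.05 ± 0.10.

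Cdkn1a, which encodes the cell cycle inhibitor p21, did not separate the genotypes. At its brighter probe set (1424638_at) wild type arrays read 9.11, 8.70 and 8.73 and knockout arrays 8.82, 8.58 and 9.29. At the other (1421679_a_at) they read 7.54, 7.11 and 7.01 against 6.96, 7.13 and 7.51. Wild type replicate 1 and knockout replicate 3 were the highest arrays at both, and these are the arrays with low Y-linked levels. The differences by genotype were 0.05 ± 0.19 (interval -0.38 to 0.48, adjusted p = 0.929) and -0.02 ± 0.18 (interval -0.43 to 0.38, adjusted p = 0.968). When the fit also held the Y-linked level they were 0.06 ± 0.10 and -0.01 ± 0.08. Within the 4 arrays with high Y-linked levels, a choice made after the values were seen, they were -0.01 ± 0.12 and -0.02 ± 0.11. Whether sex bears on Cdkn1a in these mice was not tested.

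Ccng1, the cyclin G1 gene, had a lower knockout mean at all 3 probe sets without passing. Its brightest (1420827_a_at) read 10.57, 10.40 and 10.47 in wild type and 10.50, 10.11 and 10.45 in the knockout. Knockout replicate 2 was the only array outside the wild type range. The differences were -0.13 ± 0.11, -0.12 ± 0.12 and -0.13 ± 0.10 (1450016_at and 1450017_at being the others), with adjusted p from 0.561 to 0.712. Without each array in turn they ran from -0.20 to -0.005, from -0.22 to 0.03 and from -0.22 to -0.07 in that order.

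Trp53inp1, a mediator of p53-dependent cell death and autophagy, had the largest difference upward, at 1416926_at. Wild type arrays read 8.48, 8.58 and 8.51 and knockout arrays 8.90, 8.60 and 9.50. Every knockout array lay above every wild type array, replicate 2 by only a small margin. The difference was 0.48 ± 0.20 (1.39-fold, interval 0.02 to 0.94, adjusted p = 0.278). The other probe set (1416927_at) differed by 0.09 ± 0.12 with overlapping groups. The value at 1416926_at leaned on knockout replicate 3: without it the difference was 0.23 ± 0.11 (adjusted p = 0.431), and without knockout replicate 2 it was 0.68 ± 0.16 (adjusted p = 0.0531).

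The genes nearest to Trp53inp1 over the 6 arrays were Igf2, Slc16a12 and Slc13a4, by the root mean square distance of profiles centred on the wild type mean (0.035, 0.043 and 0.060 on the log2 scale, among 18184 genes). Igf2 and Slc13a4 are known as transcripts of the meninges and choroid plexus. They differed by 0.52 and 0.50 between the groups (adjusted p = 0.258 and 0.271). Choroid plexus markers did not follow that profile: their list mean was 7.13 in wild type replicate 2 and 5.81 to 6.06 in the other 5 arrays, with 0 of 7 measured markers past the test. The meningeal and perivascular marker list ran in the same order within the knockout arrays as Trp53inp1, at 9.20, 8.94 and 9.45 in replicates 1, 2 and 3 against 8.79 to 9.05 in wild type. All 8 of its markers were measured and 0 passed the test, with a summed linear level of 14916 to 17692 in wild type and 18486 to 22078 in the knockout. A list of 8 glucocorticoid targets did so too, at 9.29, 9.12 and 9.74 against 9.05 to 9.11, again with 0 past the test. Fkbp5, its member with the smallest p, differed by 0.59 ± 0.16 (adjusted p = 0.119). Astrocyte and oligodendrocyte lists ran in the Trp53inp1 order too, at 11.34, 11.29 and 11.41 and at 11.13, 11.07 and 11.23, though below wild type. Lists of other p53 targets and of cyclins did so as well, and those of neurons, microglia and endothelial cells did not. The order was thus not particular to the meningeal and glucocorticoid lists. The part of any list in Trp53inp1 was not tested. RMA gives no level of 0, so no marker can be called absent. In bulk tissue, fewer cells of a type and less RNA per cell cannot be told apart.

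**Figure D2:**
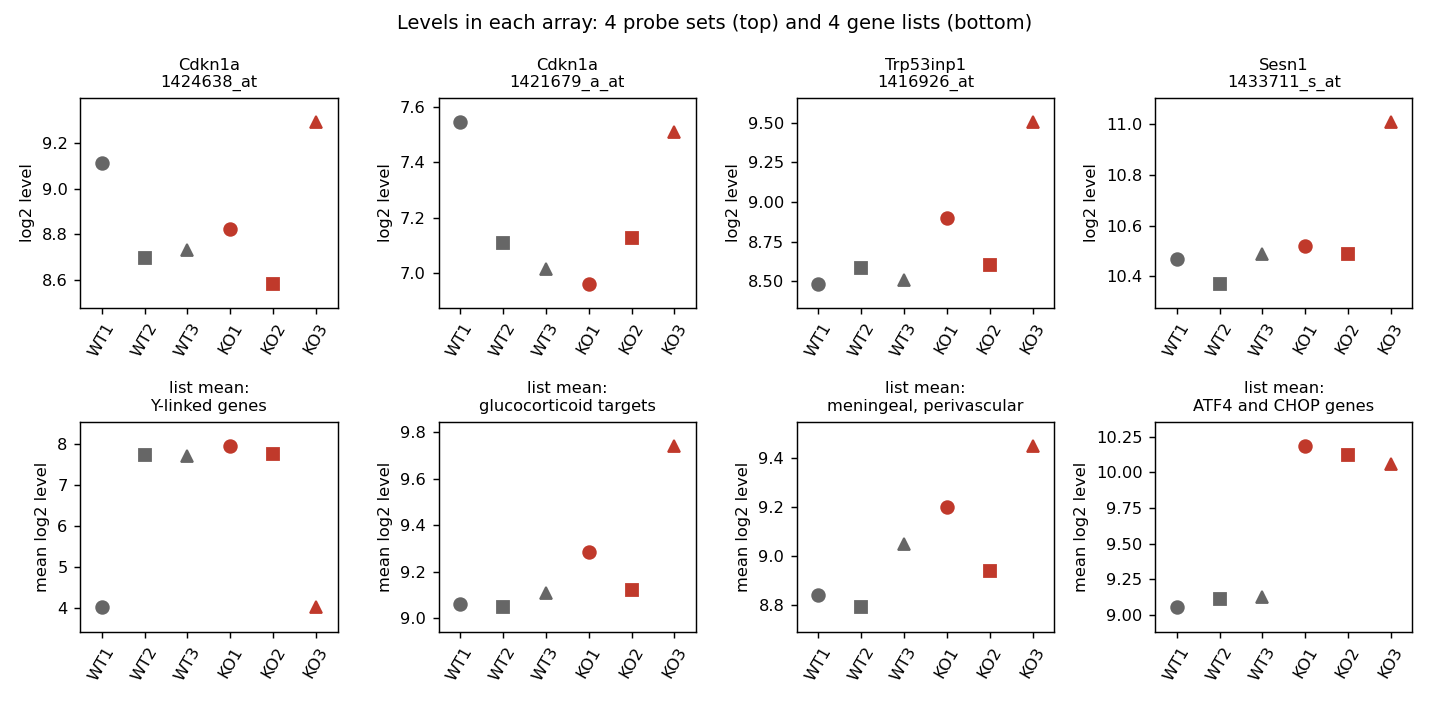
The upper row plots the log2 level in each array of both Cdkn1a probe sets and of the brightest probe set of Trp53inp1 and Sesn1, and the lower row the mean log2 level of 4 gene lists, with grey for wild type and red for knockout. Cdkn1a is highest in the 2 arrays with the low Y-linked level (4.03 and 4.02), whereas Trp53inp1 and Sesn1 peak in knockout replicate 3. ATF4 and CHOP genes part the groups with no such spread.

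Fas, the death receptor gene, was dim, with 34.8% of probe sets dimmer. Wild type arrays read 5.26, 5.31 and 5.31 and knockout arrays 5.65, 5.22 and 5.63. Knockout replicates 1 and 3 stood above the wild type range and replicate 2 below it. The difference was 0.21 ± 0.12 (interval -0.07 to 0.49, adjusted p = 0.442). Without knockout replicate 2 it was 0.35 ± 0.06 and passed (adjusted p = 0.0278), in a setting where 3037 probe sets passed in all.

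Sesn1, which encodes a sestrin that restrains mTORC1, varied widely among the knockout arrays. At its brightest probe set (1433711_s_at) wild type arrays read 10.47, 10.37 and 10.49 and knockout arrays 10.52, 10.49 and 11.01. At 1454699_at they read 9.59, 9.62 and 9.53 against 9.64, 9.15 and 10.15, and at 1438931_s_at 9.52, 9.45 and 9.38 against 9.46, 8.70 and 9.85. Knockout replicate 3 was the highest array at all 4 Sesn1 probe sets, and knockout replicate 2 the lowest at 3 of them. The knockout SD was 0.499 at 1454699_at, against 0.0467 in wild type. The mean differences were 0.23 ± 0.14, 0.07 ± 0.21 and -0.11 ± 0.25 in that order, and -0.07 ± 0.09 at the dim probe set 1444376_at, with adjusted p from 0.471 to 0.918. At 1454699_at and 1438931_s_at the sign turned on 1 array, from -0.18 and -0.37 without knockout replicate 3 to 0.31 and 0.20 without knockout replicate 2.

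This pattern of extremes was common among the 20 probe sets. Knockout replicate 2 was the lowest of the 6 arrays at 10 of 20, against 21.2% of all probe sets, and knockout replicate 3 the highest at 6 of 20, against 17.5%. The SD was larger in the knockout at 15 of 20, against 68.6% of all probe sets. The median SD of the 20 was 0.0852 in wild type and 0.195 in the knockout, and that of all probe sets 0.0811 and 0.125. Probe sets of 1 gene share RNA and often sequence, so these counts do not rest on 20 separate measurements.

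The Gadd45 genes pointed in different directions. Gadd45a, the p53-responsive member, had the smallest p of the 20 probe sets and was lower. Wild type arrays read 7.31, 7.22 and 7.22 and knockout arrays 7.004, 6.57 and 6.93. Every knockout array lay below every wild type array, replicate 2 the farthest. The difference was -0.42 ± 0.12 (1.33-fold lower, interval -0.69 to -0.14), with an adjusted p of 0.124 that missed the threshold. Without each array in turn it ran from -0.50 to -0.28, and the nearest to the threshold was without knockout replicate 2 (-0.28 ± 0.07, adjusted p = 0.0579).

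The genes nearest to Gadd45a by the same measure were Pamr1, Zcchc2 and Tyro3, at distances of 0.015, 0.032 and 0.034. They differed by -0.41, -0.40 and -0.39 (adjusted p = 0.141, 0.146 and 0.181). Oligodendrocyte markers were lower alongside, with 7 of 8 measured, 1 past the test (lower), and a summed linear level of 36682 to 40760 in wild type and 32630 to 35464 in the knockout. Microglial markers were lower too, with all 8 measured, 3 past the test (lower), and sums of 6697 to 7519 and 5949 to 6332. Neuronal, astrocyte, red blood cell and choroid plexus markers also had lower summed levels in the knockout with no overlap of the groups. Those of endothelial and meningeal cells were higher. Choroid plexus markers, 7 of 8 measured, summed to 660, 7960 and 773 in wild type and 528 to 562 in the knockout, with 0 past the test. Neuronal markers summed to 56482 to 57095 in wild type and 51324 to 53826 in the knockout, with 0 of 8 past the test. Astrocyte markers summed to 39270 to 39913 and 35534 to 38394, with 2 of 8 past the test lower and 1 higher. Red blood cell markers, 3 of 6 measured, summed to 249 to 253 and 125 to 188, with 1 past the test (lower). The part of any of these in the Gadd45a value was not tested.

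Gadd45b, which neurons induce with activity, was higher at 2 of its 3 probe sets and lower at the other, without passing. At its brightest (1450971_at) wild type arrays read 8.14, 8.43 and 8.33 and knockout arrays 8.45, 8.64 and 8.38. The groups overlapped at knockout replicate 3, and the difference was 0.19 ± 0.10 (interval -0.05 to 0.43, adjusted p = 0.414). The probe sets 1449773_s_at and 1420197_at differed by 0.18 ± 0.13 and -0.16 ± 0.11 (adjusted p = 0.536 and 0.535). Nearest to it at 1450971_at were Reg3g, 4933406G16Rik and Mocs1, at distances of 0.035, 0.041 and 0.047.

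Gadd45g read 8.87, 9.25 and 9.11 in wild type and 9.44, 9.17 and 9.14 in the knockout. Knockout replicate 1 was the only array above the wild type range. The difference was 0.17 ± 0.12 (interval -0.11 to 0.46, adjusted p = 0.544). Immediate early genes, the usual companions of Gadd45b and Gadd45g in active neurons, were lower in the same arrays, with 2 of 8 past the test (both lower). Their list mean was 8.86 to 9.32 in wild type and 7.48 to 8.47 in the knockout. Nr4a1 fell by 1.003 ± 0.10 (adjusted p = 0.00528), and Arc fell by 1.71 ± 0.33 (adjusted p = 0.0482).

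**Figure D3:**
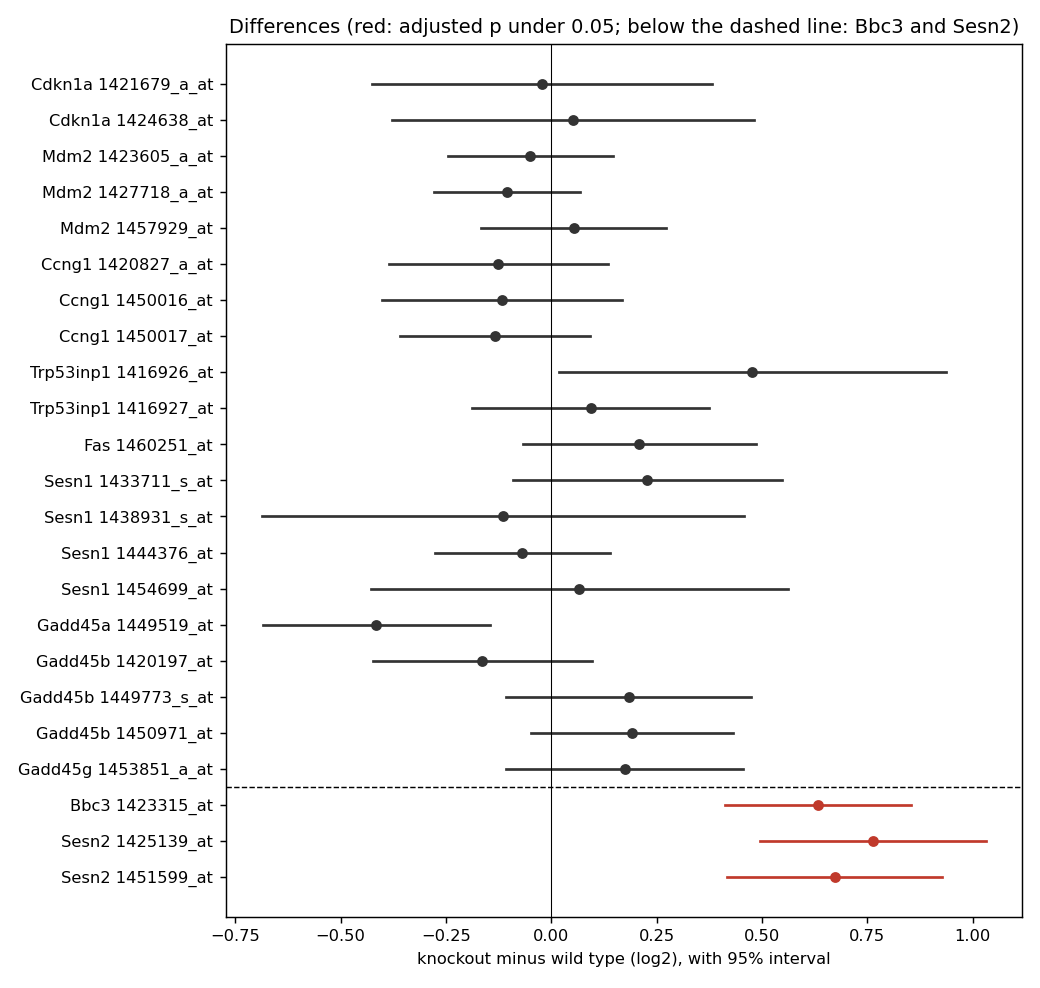
Points give the knockout minus wild type difference on the log2 scale for each probe set, and bars its unadjusted 95% interval (n = 3 in each group). All 20 intervals above the dashed line belong to probe sets that did not pass, and 18 of them cross 0. Bbc3 and Sesn2, below it, passed and are drawn in red.

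Intervals set what these arrays could show. The widest was that of Sesn1 at 1438931_s_at (-0.69 to 0.46) and the narrowest that of Mdm2 at 1427718_a_at (-0.28 to 0.07). For Cdkn1a a rise of 0.48 or a fall of 0.43 on the log2 scale lay at the edge of its intervals. The 18 intervals that cross 0 leave both directions possible with 3 arrays per group.

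Other p53 targets, a list of 24 genes of which 23 were measured, held 2 that rose and 0 that fell. Among all genes, 1.64% rose and 1.67% fell by the same rule of at least 1 probe set past the test. Of the list's 39 probe sets, 11 had an unadjusted p under 0.05, against 16.9% of all probe sets. The groups did not overlap at 14 of the 39, 11 higher and 3 lower, against 11.6% of all probe sets each way. Both shares are above those of all probe sets, and several probe sets belong to the same gene. Bbc3 encodes PUMA, a protein that starts apoptosis at mitochondria. It read 7.37, 7.36 and 7.35 in wild type and 8.01, 7.82 and 8.16 in the knockout. All knockout arrays lay above all wild type arrays, and the rise was 0.63 ± 0.10 (1.55-fold, adjusted p = 0.025). Sesn2, a sestrin like Sesn1, rose at both of its probe sets, by 0.67 ± 0.11 at the brighter (1451599_at, adjusted p = 0.0309) and by 0.76 ± 0.12 at the other (1425139_at, adjusted p = 0.0251). Its brighter probe set read 7.65, 7.59 and 7.42 in wild type and 8.29, 8.37 and 8.02 in the knockout. Promoters of Bbc3 and Sesn2, searched as above, held no p53 decamer, C/EBP-ATF element or cAMP response element.

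Bbc3 and Sesn2 are also known as targets of CHOP and ATF4 respectively, as well as of p53. In these arrays 6 of 8 ATF4 and CHOP genes rose and 0 fell. Ddit3, which encodes CHOP, had the smallest p (1.86 ± 0.07, adjusted p = 7.63e-05), and Slc7a3, an amino acid transporter gene, the largest rise (2.25 ± 0.12). Their part in the Bbc3 and Sesn2 values was not tested. Of the 6 omissions of 1 array, the call of Bbc3 was kept without knockout replicate 2 (adjusted p = 0.00628) and lost in the others, and Sesn2 kept a call at 1 or both probe sets without wild type replicate 1, knockout replicate 2 or knockout replicate 3. The list had 1 riser without wild type replicate 1, 0 without wild type replicate 2 or 3 or knockout replicate 1, 5 without knockout replicate 2, and 1 without knockout replicate 3. The list's median difference was 0.09 over the brightest probe sets, against 0.018 for all genes. Perp, a desmosomal p53 target, differed by 0.66 at its brightest probe set with overlapping groups (adjusted p = 0.326) and is named after its value was seen.

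Regulators of p53 held 0 of 18 past the test, with 7 of their 55 probe sets at an unadjusted p under 0.05, against 16.9% of all probe sets. Trp53bp1, the DNA damage adaptor 53BP1, differed by -0.45 ± 0.09 at its brightest probe set (adjusted p = 0.0576), just short of the threshold. Another of its 6 probe sets differed by -0.31 ± 0.08 and the other four by -0.06 to 0.16. Rchy1, the ubiquitin ligase Pirh2 that acts on p53, differed by 0.28 ± 0.07 (adjusted p = 0.0848). Both passed when the test took 1 probe set per gene (adjusted p = 0.0362 and 0.047).

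**Figure D4:**
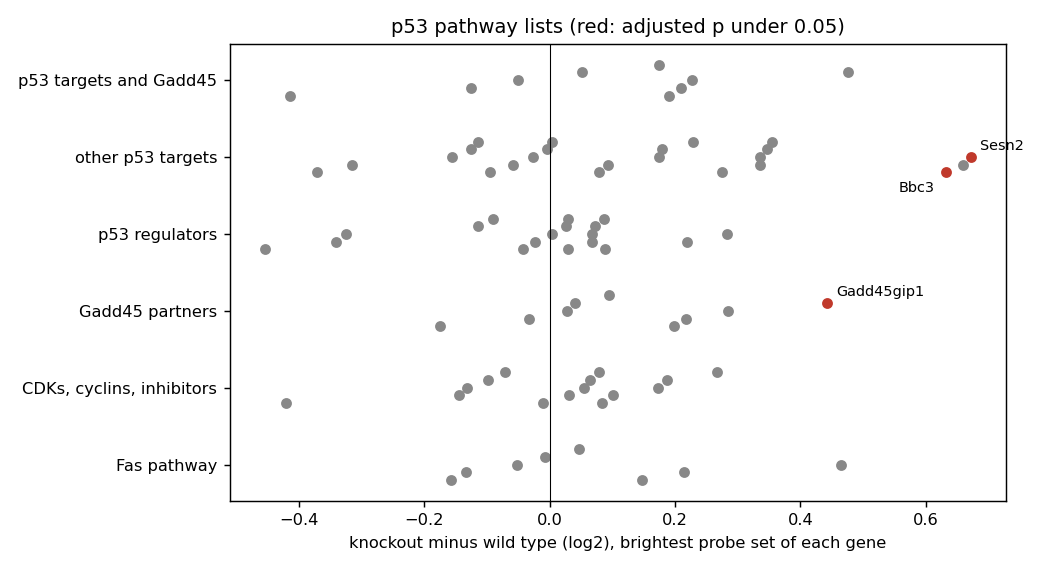
Each point is 1 gene at its brightest probe set, placed by its knockout minus wild type difference on the log2 scale, in 6 lists, with red for an adjusted p under 0.05. Points of the p53 targets and Gadd45 genes lie between -0.42 and 0.48 with none in red. Ccnd1 passed at other probe sets than the one plotted.

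Partners of the Gadd45 proteins held 1 riser and 0 falls among 9 measured genes, against 1.64% of all genes higher and 1.67% lower. Of their 24 probe sets, 6 had an unadjusted p under 0.05, against 16.9% of all probe sets. The groups did not overlap at 8 of the 24, 8 higher and 0 lower, against 11.6% of all probe sets each way. Gadd45gip1, a Gadd45-binding protein that is also part of the mitochondrial ribosome, rose by 0.44 ± 0.08 (adjusted p = 0.0435) at its brighter probe set, while the other differed by -0.14 ± 0.13. Its arrays read 9.02, 8.96 and 9.13 in wild type and 9.46, 9.40 and 9.58 in the knockout. The call was lost in 5 of the 6 omissions of 1 array and with median centring (adjusted p = 0.0527). Pcna, the sliding clamp that Gadd45 proteins and p21 bind, differed by 0.22 ± 0.07 (adjusted p = 0.149).

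Among cyclins, cyclin-dependent kinases and their inhibitors, on which p21 acts, 1 of 15 measured genes fell and 0 rose. Of all genes, 1.67% fell and 1.64% rose. Of the list's 34 probe sets, 7 had an unadjusted p under 0.05, against 16.9% of all probe sets. The groups did not overlap at 11 of the 34, 6 higher and 5 lower, against 11.6% of all probe sets each way. Ccnd1, cyclin D1, fell by 0.66 ± 0.11 and 0.70 ± 0.12 at 2 of its 3 probe sets (adjusted p = 0.0334 and 0.0351), and its brightest differed by -0.42 ± 0.14. At 1417420_at it read 9.28, 9.54 and 9.33 in wild type and 8.88, 8.70 and 8.47 in the knockout. The call was kept without knockout replicate 1 or 2 and lost without any other array. Ccnd2 differed by -0.32 ± 0.10 at a dim probe set (1416124_at) and by 0.19 ± 0.09 at its brightest.

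The Fas pathway held 0 of 8 measured genes past the test, with 4 of 19 probe sets at an unadjusted p under 0.05, against 16.9% of all probe sets. Bid, which links death receptors to mitochondria, differed by 0.46 ± 0.13 and 0.41 ± 0.12 at 2 of its 3 probe sets (adjusted p = 0.124 and 0.127), with no overlap of the groups at either. Groups did not overlap at 5 of the 19 probe sets of the list, against 23.2% of all probe sets. Without knockout replicate 2 the brighter of these Bid probe sets rose by 0.62 (adjusted p = 0.00688). Cflar, the inhibitor FLIP, differed by -0.22 ± 0.07 at 1 dim probe set of 5 (adjusted p = 0.167).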

How the data were processed

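The deposited table holds log2 values that the authors made with RMA, per the submitters' processing notes (no version given), for 45101 probe sets on 6 arrays. RMA forces the arrays to a common distribution, so a shift shared by most genes would not show. No source used here gives the log base, and the range of the values led to base 2. Precision is limited by the number of arrays. After leaving out 64 control probe sets, 45037 were tested in limma 3.58.1 (lmFit and eBayes, R 4.3.3), two-sided, with group as the only term and no brightness filter. Probe sets with 1 symbol (34945) were named. Of these, 34741 were matched by gene identifier to RefSeq (GRCm38.p6), and 932 had several symbols and 9160 none.

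Whether each array stands for a separate animal is not stated, so the p-values reflect only the spread among these samples, which may be partly technical. Y-linked levels differed within each group, so the arrays of a group do not all come from 1 animal. Whether replicate numbers pair the samples cannot be told from these arrays. Deviations of same-numbered arrays correlated at -0.196, -0.0405 and -0.169. The highest value was 0.221, between wild type replicate 1 and knockout replicate 3, the arrays with low Y-linked levels. With 3 arrays per group these correlations cannot decide the question. The genes, lists, tests and alternatives were chosen with earlier results of these data known. Named genes were the listed genes with all probe sets, Htra2, up to 4 called genes or the 2 with the smallest p of each pathway list, the 3 nearest genes to the 3 probe sets with the smallest p, and, from the other lists, genes among the 2 with the smallest p. The fit was also run on simulated independent normal values. These hold no outlying array and no Y-linked split, so that run does not bear on how stable the calls are here.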

Additional observations from a re-analysis of the deposited data

How the results depend on the processing

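No probe set of the listed genes passed in 15 of 17 alternatives. With array weights 3 passed (Trp53inp1 at 1416926_at, 0.61, adjusted p = 0.045; Fas, 0.31, 0.0496; Gadd45a, -0.32, 0.0456), in a setting that gave knockout replicate 2 a weight of 0.25. Leaving out 1 array gave 0 to 1. Of 324 values of these probe sets under alternatives, 20 changed sign, at 8 probe sets that did not pass; the cause was not tested. Over all probe sets 796 passed, and 1757 without dim probe sets, 1770 with limma-trend and robust moderation, 4205 with array weights, 154 with the replicate block, 445 with the Y-linked covariate, 2035 at an adjusted p under 0.10, 314 without both replicates numbered 2, 65 to 3037 without 1 array, and 3 in the 4 arrays with high Y-linked levels, which are fewer samples. With the replicate block, no listed gene and no gene of the other p53 target, Gadd45 partner or cyclin lists passed (0 each). No sample correlated best with its own number. Other p53 targets past the test numbered 8 with array weights, 4 at an adjusted p under 0.10, 1 without both replicates numbered 2, 0 in the 4 arrays and 0 to 5 without 1 array. p53 regulators numbered 2 without dim probe sets, 2 with limma-trend, 3 with array weights, 3 at an adjusted p under 0.10, 2 with 1 probe set per gene and 0 to 1 without 1 array. Gadd45 partners numbered 2 with limma-trend, 2 with array weights, 0 with median centring, the Y-linked covariate, both replicates numbered 2 left out or the 4 arrays, and 0 to 2 without 1 array. Cyclins and their kinases numbered 3 with array weights, 0 with 1 probe set per gene, both replicates numbered 2 left out or the 4 arrays, and 0 to 2 without 1 array. The Fas pathway numbered 1 with array weights, 1 without both replicates numbered 2 and 0 to 1 without 1 array.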
